A study of Mus musculus with 48 samples.

Results

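The nuclear genes of respiratory complex I were described in mouse kidney RNA. They were taken by name: every protein-coding gene of both deposited tables whose symbol begins with Nduf followed by a, b, c, s or v. The rule found 46 of 49585 genes, and all 46 passed the filter on low values (4 or more libraries with an FPKM of 1 or more), as did 14922 genes in all. By role the 46 comprise 7 core subunits, 29 accessory subunits and 8 assembly factors. The remaining 2 are Ndufa4, which carries a complex I name but is a subunit of complex IV, and its paralogue Ndufa4l2. The rule itself uses names and no measured value.

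Complex I is the entry point of electrons from NADH into the mitochondrial respiratory chain. Its catalytic core holds the flavin, the iron-sulphur clusters and the proton channels, and is built partly from nuclear and partly from mitochondrial genes. Accessory subunits surround this core, and assembly factors help to join its modules and then leave. The kidney tubule is rich in mitochondria because it pumps large amounts of salt.

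The kidneys came from mice labelled WT that received D-alanine, the mirror-image form of L-alanine, or vehicle. They were collected at circadian times CT0, CT4, CT8, CT12, CT16 and CT20, with 4 libraries in each of the 12 groups (24 per treatment). Strain, age, sex, dose and route are not given in the labels, and all groups share the same WT label. Kidneys are stated to be from different mice, in an experiment performed in 2 runs. The values come in 2 tables. Each holds 24 libraries, 2 from every group, and taking the tables as those runs is an inference.

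Depth, recovered from the steps of the FPKM values (fragments per kilobase of exon, scaled to the library total), ran from 7626057 to 14403234 fragments (median 11601135). The kidney label was checked with 8 proximal tubule markers, which all passed the filter and summed to between 1881 and 4750 FPKM per library. The tables differed in the share of FPKM from mitochondrially encoded genes. For vehicle it was 41.4% ± 3.38 in the first and 19.9% ± 1.95 in the second, and for D-alanine 37.4% ± 4.33 and 17.0% ± 1.36 (SD, n = 12 each). Because FPKM divides by the library total, this share moves every other gene, so tables are compared below only as a description and treatments within tables.

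Levels of the 46 genes spanned 112-fold (208.5-fold per principal transcript), from 589 FPKM for Ndufb9 to 5.27 for Ndufb2. Accessory subunits had a median of 135.9 FPKM and core subunits of 126.0, whereas the assembly factors had a median of 15.2. These levels are per length, and they depend on which length is used. FPKM here divides by the summed exons of all annotated transcripts, and in 13 of the 46 genes that sum is over 2 times the length of the principal transcript in GENCODE M21. Per principal transcript, an alternative chosen after seeing the data, the medians were 222.9 for core subunits, 196.3 for accessory subunits and 18.8 for assembly factors.

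The highest levels belonged to small accessory subunits. Ndufb9, a subunit of the membrane arm, had 589 ± 101.4 FPKM (SD, n = 48), with libraries from 432.9 to 853.8. Ndufa6, a subunit at the base of the peripheral arm, had 457 ± 75.4, and Ndufa2, a subunit of the NADH-oxidising module, 414 ± 71.2. Their ranges over libraries overlapped, and per principal transcript the order was another, with Ndufa6 at 1394, Ndufb9 at 862.9 and Ndufa2 at 413.9, below Ndufa4 and Ndufs6. The lowest were Ndufb2, a short membrane arm subunit, with 5.27 ± 1.11 FPKM, Ndufa4l2 with 5.70 ± 1.49, and Ndufaf5, an arginine hydroxylase that modifies the core subunit Ndufs7, with 6.69 ± 1.20. Their libraries also overlapped, between 3.23 FPKM, the lowest library of Ndufa4l2, and 10.1, its highest. Ndufa4l2 rested on a median of 70.2 fragments per library, the fewest of the 46, and Ndufa6 on 9360, the most.

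Among the core subunits, Ndufs8, an iron-sulphur subunit, had 175.7 ± 26.1 FPKM (SD, n = 48), and Ndufv1, which binds NADH and the flavin, had 140.6 ± 31.3. Ndufs7, which carries the last iron-sulphur cluster before ubiquinone, had 126.0 ± 21.2, Ndufv2, an iron-sulphur subunit, 102.7 ± 16.1, and Ndufs3 75.8 ± 16.6. The core subunit Ndufs1, which holds several iron-sulphur clusters, stood below them at 22.1 ± 4.71. Its summed exons come to 8086 bases against 2661 for its principal transcript, and per principal transcript it had 67.1, still the lowest of the 7. Among the assembly factors, Ndufaf8, the partner of Ndufaf5, was highest at 36.4 ± 7.84 and Ndufaf2, a factor related to the subunit Ndufa12, followed at 27.5 ± 7.63.

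**Figure D1:**
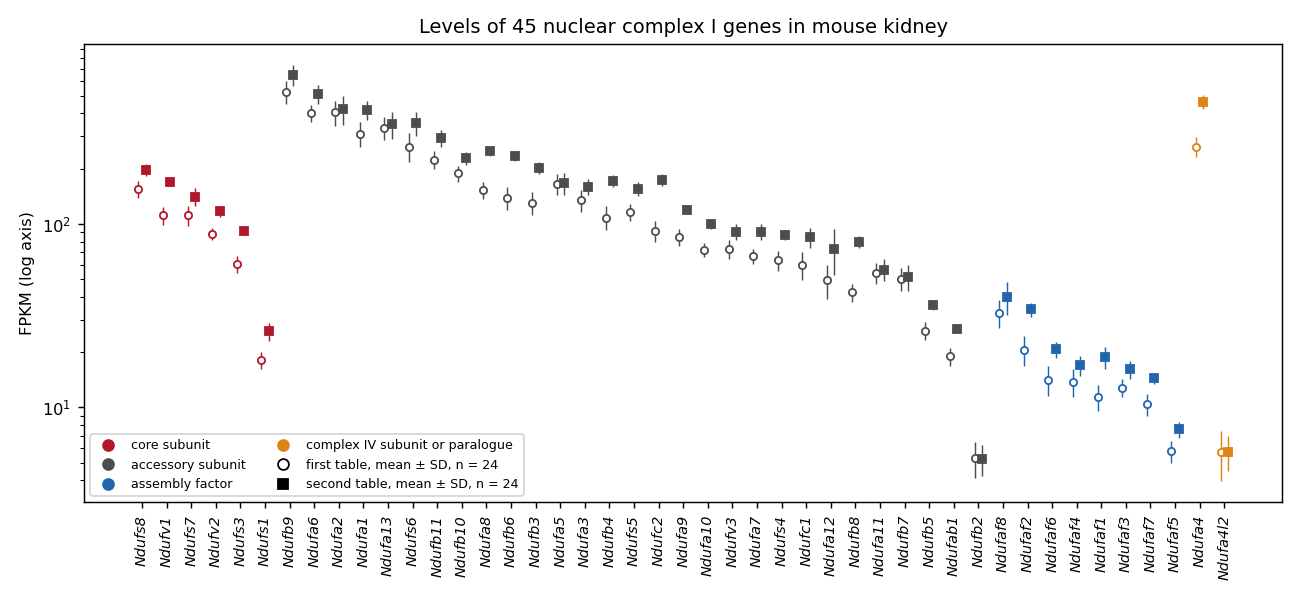
Mean FPKM (log axis) of 45 of the 46 genes in the first table (open circles) and the second table (filled squares), with SD over 24 libraries, ordered by role and level. The assembly factors lie between 5.79 and 40.1 FPKM in either table, most subunits lie above them, and over all 46 genes the second table was higher for 45.

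The members were higher in the second table for 45 of 46 genes, by a median log2 difference of 0.43, against 0.068 over all genes tested, of which 59.1% were higher. In 13 of the 46 (28.3%), every library of the second table lay above every library of the first, against 3.05% of all genes tested. Ndufc2, a membrane arm subunit, had 91.8 ± 12.5 FPKM in the first table and 173.9 ± 12.6 in the second (SD, n = 24). For Ndufb8, also of the membrane arm, the values were 42.4 ± 4.81 and 79.7 ± 5.76. In neither gene did the libraries of the tables overlap. Other members were alike in both tables. Ndufa5 had 166.0 ± 22.2 and 166.8 ± 23.3, and Ndufb2, the sole member with a lower mean in the second table, 5.31 ± 1.21 and 5.23 ± 1.02. Summed over all 46 genes, the share of FPKM in vehicle was 1.05% ± 0.087 in the first table and 1.56% ± 0.073 in the second. With mitochondrially encoded genes left out of the total, it was 1.80% ± 0.10 and 1.94% ± 0.091. The part of the mitochondrial share in the table difference was not tested beyond these values, and run and table cannot be told apart.

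The first comparison asked whether D-alanine altered the transcripts of complex I. Averaged over the 6 times, none of the 46 genes differed between D-alanine and vehicle in limma with Benjamini-Hochberg adjustment over 14922 genes (called below means an adjusted p under 0.05). The test called 259 genes elsewhere, 1.74% of those tested. At an unadjusted p under 0.05 there were 2 members (4.35%), against 20.5% of all genes, and limma-voom on the recovered fragments also called 0 of the 46 with 2 at an unadjusted p under 0.05. On the log2(FPKM + 1) scale the differences, D-alanine minus vehicle, ran from -0.099 to 0.19, with standard errors of 0.031 to 0.090.

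Of the 46 differences, 36 were below 0 (78.3%), whereas 23.6% of all tested genes were below 0. Members vary together between libraries (median correlation over pairs 0.361), so these signs are not independent of each other. The median log2 value of the 46 genes had an SD of 0.0934 between libraries of a group, with table means removed. The median was -0.035 for the members and 0.056 for all genes tested. The sign against 0 depended on the scaling and the table: the members' median was 0.021 after rescaling to TPM and 0.0043 from the first table, against -0.070 from the second. After the other rescalings it was between -0.10 and -0.052. Rescaling to TPM raised the difference of every member, such as Ndufv1 from -0.011 to 0.045. It also raised the medians of other lists, such as complex V from -0.0045 to 0.052. The turn in sign therefore does not compare the members with other genes.

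The 7 core subunits had a median difference of -0.019, with 5 below and 2 above 0, and of 0.037 after rescaling to TPM, with 1 below. In vehicle Ndufv1 had 140.7 ± 30.1 FPKM and in D-alanine 140.4 ± 33.2 (SD, n = 24), with libraries from 88.0 to 183.5 and from 95 to 182.4. The ranges covered each other almost completely, and the log2 difference was -0.011 (95% interval -0.083 to 0.061). Ndufs7 had the lowest value of the core, -0.071 ± 0.051 (SE; adjusted p = 0.427), and Ndufs1 the highest, 0.025 ± 0.045 (adjusted p = 0.781). The intervals of Ndufs3, Ndufs8 and Ndufv2 lay between -0.12 and 0.054. Over the 7 core subunits the outermost bounds were -0.17 (Ndufs7) and 0.11 (Ndufs1).

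Among the 29 accessory subunits, 27 differences were below 0 and 2 above, with a median of -0.038. Ndufb6, a membrane arm subunit, had the smallest p of all 46. Its FPKM ran from 119.0 to 265.6 in vehicle with a median of 186.5, and from 99.8 to 248.3 in D-alanine with a median of 202.2. Each treatment covers both tables, and the table means were 144.1 (first) and 242.3 (second) in vehicle against 133.6 and 229.4 in D-alanine. The libraries of the treatments overlapped in this wide span, and D-alanine had the higher mean in 3 of 12 time-by-table pairs. The log2 difference was -0.099 ± 0.042 (adjusted p = 0.18 in limma). Next came Ndufa10, a membrane arm subunit with a kinase-like fold, at -0.056 ± 0.031 (adjusted p = 0.298), Ndufa5 at -0.095 ± 0.056 (0.324) and Ndufb4 at -0.074 ± 0.045 (0.34).

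The 8 assembly factors had a median difference of 0.013, with 5 above and 3 below 0. Ndufaf7, an arginine methyltransferase of the mitochondria, stood at 0.070 ± 0.040 (adjusted p = 0.315) and had the higher mean with D-alanine in 9 of 12 time-by-table pairs. Ndufaf4, which acts on the module that binds ubiquinone, stood at 0.062 ± 0.041 (adjusted p = 0.384). Ndufaf3, its partner in that step, was at -0.063 ± 0.040 (adjusted p = 0.362). The difference between the roles was not tested.

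The largest difference was that of Ndufa4l2, the paralogue of the complex IV subunit Ndufa4 and a known target of hypoxia-inducible factor. In vehicle its FPKM ran from 3.23 to 6.98 with a median of 5.16, and in D-alanine from 3.58 to 10.1 with a median of 5.91. The 6 highest values all came from D-alanine libraries, and the other D-alanine libraries lay within the vehicle range. The log2 difference was 0.19 ± 0.080 (adjusted p = 0.182 in limma), with D-alanine higher in 8 of 12 time-by-table pairs. Rescaled to TPM the difference was 0.25. In that setting Ndufa4l2 and Ndufaf7 were called, and the calls over all genes also rose far above the 259 of the main fit. Ndufa4 itself stood at -0.056 ± 0.043 (adjusted p = 0.457).

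**Figure D2:**
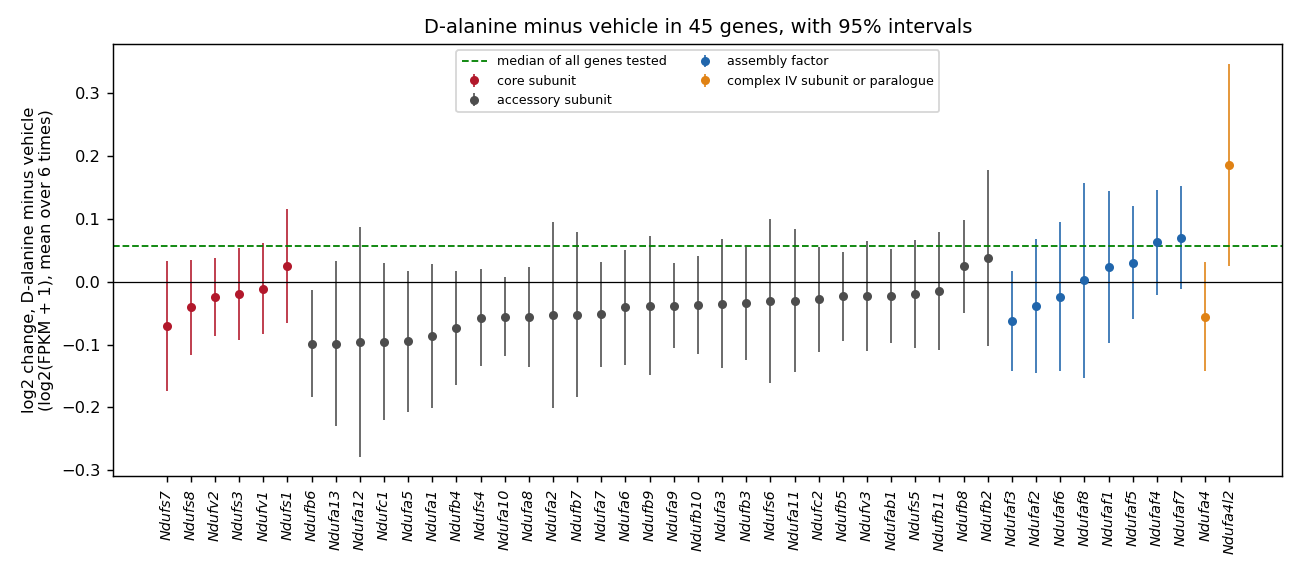
Log2 difference, D-alanine minus vehicle, of 45 of the 46 genes on the log2(FPKM + 1) scale, averaged over 6 times, with the 95% interval from limma; the dashed line is the median of all genes tested (0.056). All points but Ndufa4l2 lie within 0.10 of 0, and of all 46 genes 36 were below 0. After rescaling to TPM, which raised the difference of every one of these genes, 11 lay below 0.

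Markers of several cell types are given beside these values, and none of them was called. Of the lists not detailed, that of the inner medulla had a median log2 difference of 0.14 and that of the thick ascending limb of -0.052. All 7 endothelial markers were above 0 (median log2 difference 0.19), with 0 called and 5 at an unadjusted p under 0.05. Their summed FPKM ran from 75.1 to 216.4 in vehicle and from 79.9 to 475.9 in D-alanine. All 4 adipose markers tested were above 0 (median 0.42), with 0 called and 3 at an unadjusted p under 0.05, and the 5 adipose markers summed to between 6.26 and 33.6 FPKM in vehicle and between 7.48 and 83.5 in D-alanine. Of the 8 proximal tubule markers 5 were above 0 and 0 were called, with sums from 2258 to 4438 and from 1881 to 4750. All 6 markers of fibroblasts and smooth muscle were above 0 (median 0.17), with 0 called and 2 at an unadjusted p under 0.05, and sums from 29.7 to 79.7 and from 30.4 to 98.1. Their part in the values of the complex I genes was not tested. In whole kidney, fewer cells of a type and less RNA per cell cannot be told apart.

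The next question was whether the difference depended on circadian time. No member was called at any of the 6 times, in limma or with limma-voom. At CT0 170 genes were called in all (1.14%), and at each of the other times 0 (0.0%). Members at an unadjusted p under 0.05 numbered 2 at CT0 (22.0% of all genes), 1 at CT4 (2.55%), 7 at CT8 (14.8%), 1 at CT12 (2.27%), 0 at CT16 (4.74%) and 0 at CT20 (2.57%). With limma-voom there were 3, 1, 6, 1, 0 and 0.

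CT8 was the time at which most members were lower with D-alanine. Of the 46 differences, 42 were below 0 with a median of -0.12, while the median of all genes tested was 0.099. The 7 members at an unadjusted p under 0.05 were Ndufv2, Ndufb6, Ndufb4, Ndufa4, Ndufc1, Ndufaf3 and Ndufa10. All were lower, and over all genes 1.2% met that p and were lower. None was called (smallest adjusted p = 0.282, limma). The lower direction was not set in advance, and in either direction 15.2% of members met that p against 14.8% of all genes. Members vary together, so the 7 are not separate observations. The SD of the members' median log2 value between libraries of a group was 0.0934. In vehicle Ndufv2 had 92.5 and 90.3 FPKM (first table) and 124.8 and 135.0 (second), and in D-alanine 75.7 and 90.1 (first) and 108.7 and 113.8 (second). Both D-alanine libraries were below both vehicle libraries in each table, for a log2 difference of -0.18 ± 0.075. Ndufb6 had 141.6 and 162.1 in vehicle against 118.2 and 121.5 in the first table, and 246.9 and 264.7 against 232.7 and 226.4 in the second, again without overlap within a table (-0.25 ± 0.10, adjusted p = 0.287). Within tables the median difference of the 46 genes at CT8 was -0.14 in the first and -0.12 in the second. At CT8 the endothelial markers summed to 82.1 to 102.5 FPKM in vehicle and 110.8 to 228.4 in D-alanine, without overlap. Those of fibroblasts and smooth muscle summed to 29.7 to 42.7 and 42.1 to 56.5, and adipose markers to 6.26 to 13.1 and 10.6 to 83.5. Proximal tubule markers summed to 3586 to 4438 and 2864 to 4460. The part of these markers in the CT8 values was not tested.

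At CT0 and CT12 the median of the members was also below 0 in both tables, and at CT4, CT16 and CT20 the tables differed in sign. At CT0 the median was -0.072 (35 of 46 below 0), and -0.072 and -0.088 within the first and second table. At CT4 it was -0.015, but 0.097 in the first table and -0.095 in the second. At CT12 it was -0.087 with 38 below 0, and -0.044 and -0.098 within tables. At CT16 it was 0.079 with 8 below 0, and 0.15 in the first table but -0.020 in the second. At CT20 it was 0.0091, with -0.0091 and 0.030 within tables. These values within tables rest on 2 libraries against 2.

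At CT0 the members with the smallest p were higher with D-alanine. In vehicle Ndufb8 had 33.6 and 36.5 FPKM (first table) and 83.2 and 77.3 (second), and in D-alanine 42.4 and 47.9 (first) and 87.2 and 91.2 (second). The treatments did not overlap within either table, and the log2 difference was 0.25 ± 0.090 (adjusted p = 0.106, limma). Ndufaf4 at CT0 stood at 0.24 ± 0.10 (adjusted p = 0.154) and was called at this time without replicate 1 of the D-alanine group. The calls over all genes at CT0 also moved with the library left out, from 0 to 1247 against 170 with all libraries. Ndufa13, also known as GRIM-19, was at -0.32 ± 0.16 (adjusted p = 0.231). At CT4, the smallest p was that of Ndufa4l2, at 0.41 ± 0.19 (adjusted p = 1). The remaining times gave Ndufb6 at CT12 (-0.21 ± 0.10), Ndufaf1, a factor of the membrane arm, at CT16 (0.23 ± 0.15) and Ndufaf3 at CT20 (0.12 ± 0.097), with adjusted p of at least 0.991.

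**Figure D3:**
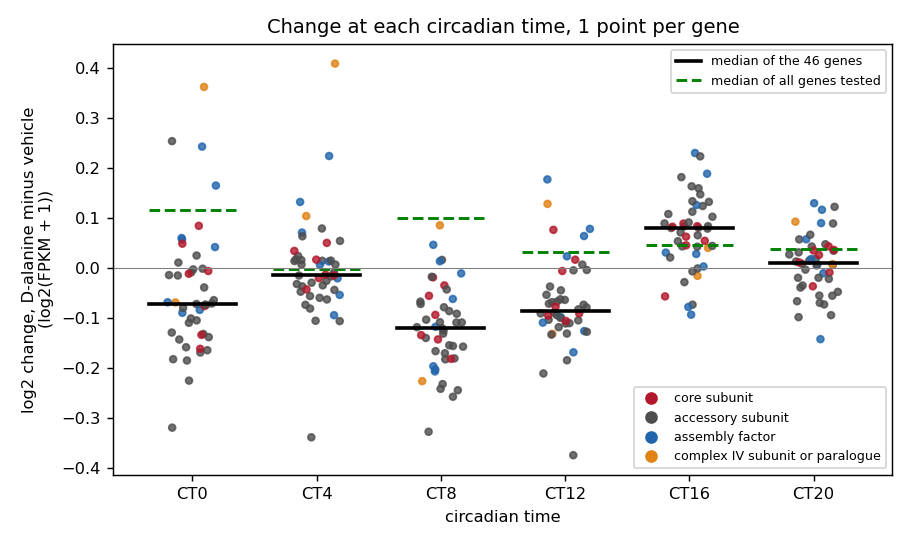
Log2 difference, D-alanine minus vehicle, on the log2(FPKM + 1) scale at each circadian time, 1 point per gene coloured by role; black bars are medians of the 46 genes and dashed bars medians of all genes tested. The members' median is -0.12 at CT8 and 0.079 at CT16, and no gene was called at any time.

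The difference itself was tested by the treatment by time interaction, which called 0 members and 0 genes (0.0%). At an unadjusted p under 0.05 it gave 0 members, against 3.53% of all genes. The test of treatment by table called 0 members and 0 genes (0.0%), with 1 member at an unadjusted p under 0.05 against 3.84% of all genes. That member was Ndufb3, whose log2 difference was lower by 0.23 in the second table than in the first (adjusted p = 0.9998). With limma-voom the counts at an unadjusted p under 0.05 were 0 and 1, and 0 were called.

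The study sampled around the day, so each gene was tested for a 24 h rhythm with a cosine and sine. In vehicle 1 member was called, against 1458 genes or 9.77% of all tested, and at an unadjusted p under 0.05 there were 5 members (10.9%) against 24.3%. In D-alanine 1 member was called against 8.3% of all genes, and 5 (10.9%) against 23.2% at an unadjusted p under 0.05. With both treatments sharing 1 rhythm, 2 members were called against 26.5%, and 6 (13.0%) against 39.0% at an unadjusted p under 0.05. The median log2 amplitude in that fit was 0.046 for the members and 0.096 for all genes tested. By role it was 0.033 for core subunits, 0.045 for accessory subunits and 0.080 for assembly factors.

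The member called in every one of these fits was Ndufaf4. It lies on the plus strand at chr4:24898083-24905001 (GRCm38, as in the deposited tables), and its principal transcript has 3 exons. In vehicle its FPKM in the first table was 13.2 and 14.9 at CT0, 13.5 and 10.4 at CT4, 10.6 and 12.3 at CT8, 12.6 and 12.9 at CT12, 16.2 and 15.5 at CT16, and 12.8 and 13.1 at CT20. In the second table it was 14.2 and 16.3, 15.2 and 14, 16.7 and 15.9, 16.2 and 17.1, 20.2 and 20.2, and 17.1 and 19.1 at the same times. CT16 held the highest values of vehicle in both tables, without overlap with any other time.

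With D-alanine the first table gave 12.3 and 18.7 at CT0, 11.3 and 12.6 at CT4, 11.4 and 12.5 at CT8, 14 and 12.9 at CT12, 17.8 and 17.5 at CT16, and 18.2 and 14 at CT20. The second table gave 18.6 and 21.6, 15 and 13.1, 16 and 14.8, 18.0 and 17.5, 18.6 and 19.2, and 15.2 and 16.9. Here CT0 and CT20 were spread, and the highest library of each table was at CT0. Relative to the mean of its own table, every one of the 8 libraries at CT16 was above and all 16 at CT4 and CT8 were below. The mean deviation over both treatments was 0.24 ± 0.081 on the log2 scale at CT16 and -0.20 ± 0.12 at CT4 (SD, n = 8).

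The fitted log2 amplitude of Ndufaf4 was 0.18 ± 0.031 with a peak at CT17.7 ± 0.657 h in both treatments together (SE; adjusted p = 7.83e-05, limma). In vehicle it was 0.17 ± 0.045 with a peak at CT17.0 (adjusted p = 0.0274), and in D-alanine 0.20 ± 0.045 with a peak at CT18.3 (adjusted p = 0.00798). The call in D-alanine was lost without the table term (adjusted p = 0.15), in the first table (0.0904) and the second (0.321), and with D-alanine libraries fitted by themselves. That in vehicle was lost without the table term (0.258), in either table (0.403 and 0.116), after rescaling to TPM (0.0577) and after median centring (0.0777). The rhythm shared by the treatments was called in each table alone (adjusted p = 0.014 and 0.0216) and whichever library was left out. The call in vehicle was also lost (adjusted p up to 0.0684) when any of 6 libraries was left out: Vehicle CT4 replicates 2 and 4, CT8 replicate 1, and CT16 replicates 1, 3 and 4. The test of a rhythm difference between treatments called 0 members and 0 genes (0.0%), with 0 members at an unadjusted p under 0.05 against 2.37%, and limma-voom gave the same member counts.

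**Figure D4:**
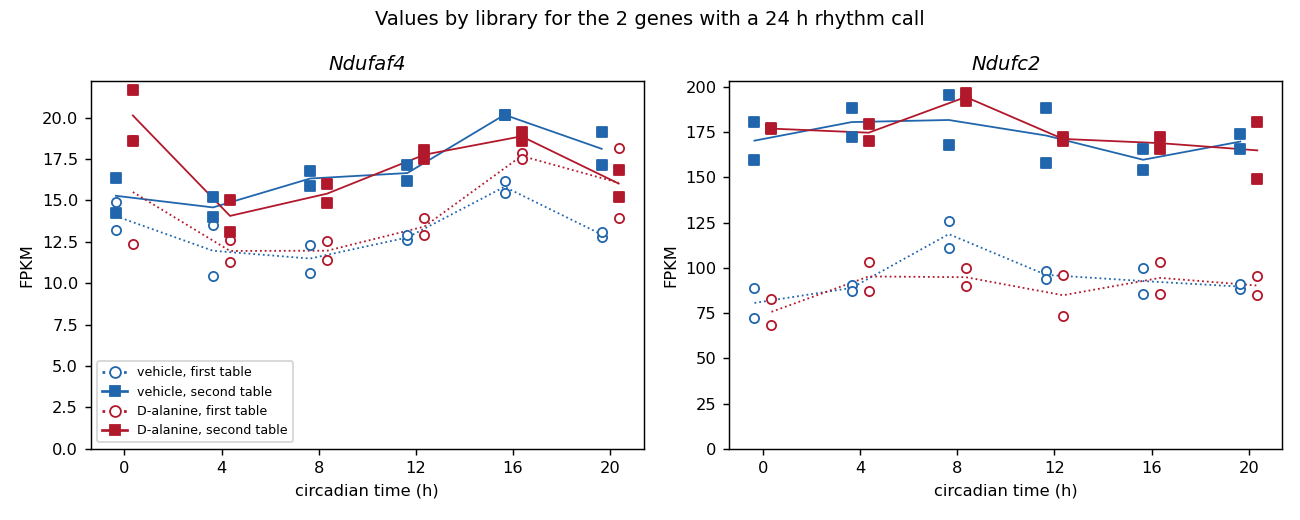
FPKM of Ndufaf4 (left) and Ndufc2 (right) in each library against circadian time, points of the treatments set apart by a small offset, with lines through the means of 2 libraries per table. In both tables all Ndufaf4 libraries at CT16 lie above, and all at CT4 and CT8 below, the mean of their table, while for Ndufc2 the tables differ far more than the times.

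The promoter of Ndufaf4 is shown because this was the member with a daily rhythm in both tables. It is the RefSeq promoter of build GRCm38.p6, 250 bases before the annotated start, at chr4:24897833-24898082 on the plus strand, with a GC content of 66.4%. Capitals mark matches to the motif GCGCNTGCG of NRF1, a transcription factor of many respiratory chain genes. The match is a palindrome, so it is found on both strands.
Ndufaf4 promoter: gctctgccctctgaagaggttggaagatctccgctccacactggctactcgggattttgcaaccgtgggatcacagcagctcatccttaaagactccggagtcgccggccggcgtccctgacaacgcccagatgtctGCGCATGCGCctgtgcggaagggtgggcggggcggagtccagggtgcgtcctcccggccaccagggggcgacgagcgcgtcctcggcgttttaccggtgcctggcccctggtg
The letters of the E-box CACGTG, the D-box TTATGNAA and the ROR element AGGTCA, which clock factors are known to bind, are not in this window on either strand. Nothing follows from that about those factors.

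Ndufc2, which lies at chr7:97400003-97407802 on the plus strand, was the other member called with both treatments together (adjusted p = 0.0467, limma). Its log2 amplitude was 0.092 ± 0.030 with a peak at CT8.62 (SE of the peak 1.22 h). In vehicle it had 111.2 and 126.1 FPKM at CT8 in the first table against 72.5 and 88.8 at CT0, without overlap. In the second table the values were 167.7 and 195.7 at CT8 and 180.8 and 159.7 at CT0, which overlapped. This call was near the threshold and was lost when any of 27 of the 48 libraries was left out (adjusted p up to 0.104). It was not reached in the first table alone (0.192) or the second (0.0929).

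The remaining members with the smallest p in the rhythm tests did not reach the threshold. With both treatments together, Ndufa4l2 peaked at CT3.19 with a log2 amplitude of 0.17 ± 0.055 (adjusted p = 0.0551), Ndufb10 at CT15.9 with 0.074 ± 0.026 (0.0775) and Ndufaf3 at CT11.4 with 0.081 ± 0.029 (0.0837). Ndufaf3, the partner of Ndufaf4, had an amplitude of 0.13 ± 0.040 in vehicle with a peak at CT10.6 (adjusted p = 0.0755), earlier than that of Ndufaf4, but the difference of their peaks was not tested. In vehicle Ndufc2, Ndufv3 and Ndufb4 followed with adjusted p of 0.149, 0.186 and 0.204. In D-alanine Ndufa4l2, Ndufb8, Ndufb10 and Ndufaf6 followed Ndufaf4 with adjusted p of 0.0768, 0.16, 0.195 and 0.214. No core subunit came near: the smallest adjusted p with both treatments together was that of Ndufs3, 0.208, with an amplitude of 0.054.

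How the members varied together between libraries was described with the group and table means removed, over 48 libraries. These libraries share one FPKM scaling, and abundant short transcripts share length and capture properties, so the values are a description without a test. The median correlation over the 1035 pairs of members was 0.361, and 83.1% of pairs were above 0. Most subunits followed the common mean: Ndufb10 correlated with the mean of the other 45 genes at r = 0.845, Ndufs6, a zinc-binding subunit of the NADH module, at 0.834, and the core subunit Ndufs8 at 0.817. By role the median was 0.744 for accessory subunits, 0.638 for core subunits and 0.286 for assembly factors. The core subunit Ndufs1 went the other way at -0.242, as did Ndufaf5 at -0.145 and Ndufaf1 at -0.043. Over the 46 genes this correlation was related to mean FPKM (Spearman rho 0.688) and inversely to the length of the principal transcript (rho -0.537), and the part of level or length in it was not tested.

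**Figure D5:**
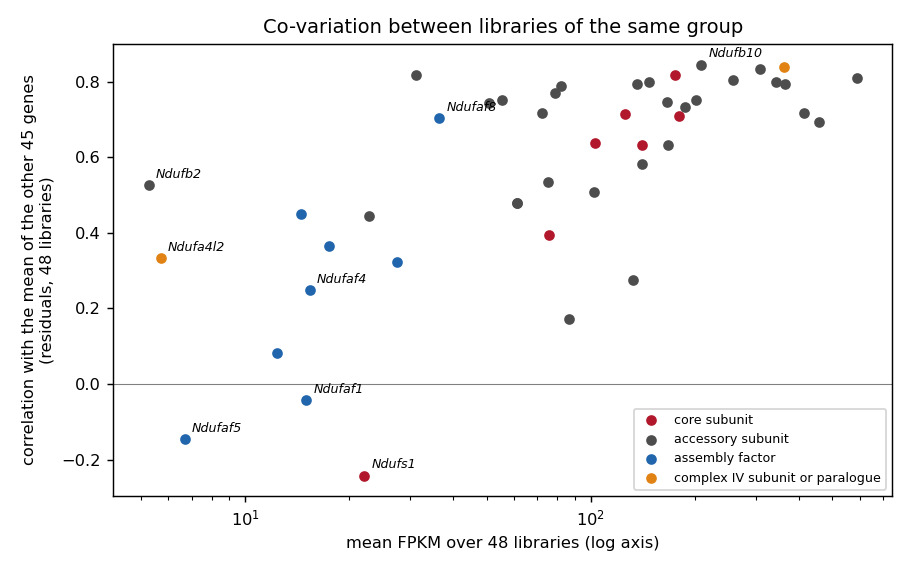
Correlation of each gene with the mean of the other 45 genes after removal of group and table means (48 libraries) against its mean FPKM (log axis), coloured by role. Ndufb10 lies highest at 0.845, while Ndufs1, Ndufaf5 and Ndufaf1 lie below 0.

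The mean of the members followed the nuclear subunits of complexes III, IV and V closely, with r = 0.941, 0.97 and 0.958 (Spearman rho 0.933, 0.967 and 0.956) and at least 0.935 within either table. Without the 2 libraries farthest from the median of the other list, r was 0.928, 0.963 and 0.95. With complex II, whose 4 subunits are all nuclear, r was 0.304, and it was 0.623 in the first table but -0.121 in the second. With the 7 core subunits encoded by mitochondrial DNA r was -0.035 (-0.246 and 0.226 within tables). The regulators of mitochondrial biogenesis gave -0.366 (-0.157 and -0.593), and the share of FPKM in mitochondrially encoded genes -0.313 (-0.429 and -0.132). Of the 12 cell type marker lists described in this way, the 3 macrophage markers tested gave the highest value, 0.528 (0.289 and 0.709), and those of the inner medulla the lowest, -0.398 (-0.494 and -0.269).

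Of the 7 core subunits encoded in the mitochondrial genome, 3 were called lower with D-alanine in limma: mt-Nd1 at -0.25 ± 0.054 (adjusted p = 0.0139), mt-Nd2 at -0.33 ± 0.060 (0.00651) and mt-Nd5 at -0.27 ± 0.063 (0.0208). The other 4 did not pass: mt-Nd3 stood at -0.41 ± 0.22 (adjusted p = 0.278), mt-Nd4 at -0.21 ± 0.063 (0.0691), mt-Nd4l at -0.23 ± 0.28 (0.662) and mt-Nd6 at -0.060 ± 0.18 (0.875). The median of the 7 was -0.25, and it was -0.090 after quantile normalization, -0.19 after rescaling to TPM and -0.32 after median centring. Rescaled without the mitochondrial genes, 2 were called. All 3 calls were lost under quantile normalization, without the filter, without the table term and in each table alone, where 0 of 7 were called. The 7 nuclear core subunits of the same complex had 0 called and a median of -0.019. Whether the nuclear and the mitochondrial sets differ was not tested.

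The other nuclear genes of the respiratory chain gave 0 calls in the mean over 6 times, in limma and with limma-voom, and at an unadjusted p under 0.05 in limma stood 3 other assembly factors, 0 genes of complex II, 1 of complex III, 2 of complex IV, 1 of complex V and 3 regulators. Over all genes tested 1.74% were called in limma and 20.5% had an unadjusted p under 0.05. The 12 assembly factors of other names had a median of 0.041, with 9 above 0, but of -0.028 after quantile normalization and -0.029 after median centring. Tmem126b, a factor of the membrane arm, was at 0.11 ± 0.035 (adjusted p = 0.0772). Complex II had a median of 0.027 (3 of 4 above 0), which turned to -0.043 after median centring. Complex III had a median of -0.046 (7 of 9 below 0) and complex IV of -0.056 (9 of 10 below 0), which became 0.010 and 2e-04 after rescaling to TPM. Complex V stood at -0.0045 (8 of 15 below 0), and at 0.052 after rescaling to TPM. The smallest p of complex IV was that of Cox6c, at -0.12 ± 0.043 (adjusted p = 0.113). The 14 regulators of mitochondrial biogenesis had a median of 0.048 (9 above 0), but of -0.014 after quantile normalization and -0.022 after median centring, with the mitochondrial transcription factor Tfam at 0.12 ± 0.042 (adjusted p = 0.118). In the rhythm shared by both treatments, 0 genes of complexes II to V and of the mitochondrially encoded core were called. Of the other assembly factors 3 of 12 were called (Tmem70, Lyrm2 and Atp5s, the last of which is known as coupling factor B of ATP synthase rather than as a complex I factor), and of the regulators 2 of 14 (Tfam and Yy1). Over all genes tested 26.5% were called in that fit, so neither count stands above the share of all genes.

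The position of the members was not used by the rule. In GENCODE M21, 13 of the 46 (28.3%) have a protein-coding gene that starts within 1000 bases of their own start on the opposite strand and runs away from it, against 9.95% of the 12155 tested protein-coding genes. The closest such pair is Ndufa7 with Rps28, a ribosomal protein gene, with 10 bases between their starts. The next are Ndufb9 with Tatdn1 (18 bases) and Ndufa8 with Morn5 (52 bases). Among the 11 pairs in which both genes were tested, 0 of the neighbours were called in the mean over 6 times. After removal of group and table means, Ndufa7 and Rps28 correlated at r = 0.789 over the 48 libraries and Ndufa2 and Ik at -0.36. These were the highest and the lowest of the 11 pairs. Ndufa7 also correlated at 0.769 with the mean of the other members. The correlation of Rps28 with those members is not given here, and whether the value is particular to the pair was not tested.

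Promoters of the RefSeq table (GRCm38.p6, 250 bases before the start) were found for 40 of the 46 members and searched on both strands. The NRF1 motif GCGCNTGCG was in 9 of 40 (22.5%), against 12.4% of the promoters of tested protein-coding genes and 5.88% of all. The ETS motif CCGGAAG, bound by GABPA, was in 5 of 40 (12.5%, against 15.4% of tested genes), and the cyclic AMP response element TGACGTCA in 3 (7.5%, against 2.95%). The E-box CACGTG was in 2 (5.0%, against 9.92%), the D-box TTATGNAA in 1 (2.5%, against 2.32%) and the ROR element AGGTCA in 5 (12.5%, against 13.5%). The YY1 motif AAGATGGC and the ERR motif TCAAGGTCA, which contains the ROR element, were in 0 of 40 (2.39% and 0.32% of tested genes). The median GC content was 57.9% for members and 59.6% for promoters of tested genes. A match is a run of letters and not evidence of binding.

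The NRF1 matches are shown with 12 bases on each side, in capitals, for the members whose match lies outside the gene as the deposited tables bound it, so that the shared core can be read. Ndufa11 and Ndufa12 lie on plus strands at chr17:56717690-56717722 and chr10:94198903-94198935, Ndufs5 and Ndufb4 on minus strands at chr4:123718263-123718295 and chr16:37654538-37654570. The matches begin 60, 120, 97 and 190 bases before the starts. In Ndufs5 and Ndufb4 the motif reads on the opposite strand.
Ndufa11: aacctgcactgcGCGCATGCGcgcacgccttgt
Ndufa12: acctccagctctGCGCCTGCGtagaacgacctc
Ndufs5: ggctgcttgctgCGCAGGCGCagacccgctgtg
Ndufb4: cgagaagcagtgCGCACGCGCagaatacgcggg
Of the 9 members with this motif, Ndufaf4 was called in the rhythm tests. The other 8 (Ndufa5, Ndufa8, Ndufa11, Ndufa12, Ndufb4, Ndufb10, Ndufs5 and Ndufs6) were called in none of the tests between treatments or for rhythm.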

How the data were processed

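Kidney RNA was sequenced after reverse transcription with a SMARTER mRNA-Seq kit, per the labels' protocols. The authors deposited FPKM values per gene in 2 tables, and the submitters' processing notes name the genome build GRCm38 (mm10). The aligner and counter were not given in the sources used here. Dividing the FPKM by the value of 1 fragment gave whole numbers (within 0.05) for 99.84% to 99.97% of values under 20 fragments, and so the depth of each library. Over the 72 pairs of libraries within groups, these fragments differed by a chi-square of at least 5.69 per degree of freedom, so none was treated as a duplicate.

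Values were transformed as log2(FPKM + 1) and fitted in limma 3.58.1 (R 4.3.3) with moderation along a trend. The model held the 12 groups and the table as an additive term. Rhythm was fitted as a cosine and sine with a 24 h period. The treatment contrasts and the treatment by table term were two-sided t tests. Rhythm, rhythm difference, treatment by time and times as a factor were F tests. All p-values were adjusted by Benjamini-Hochberg over 14922 genes, with 0.05 as the threshold. They measure the spread between kidneys of different mice. Replicate numbers follow accession order and pair nothing. limma-voom on recovered fragments, 4 rescalings and other filters, terms and subsets were alternatives. The code was tested on simulated data.

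Named with values were the core subunits (1 of which is not reported here, though it enters the counts and medians), the 3 highest and 3 lowest members by level, and up to 5 members per direction in the mean comparison, 5 per rhythm test and 3 per time with the smallest p. The other genes named for table differences, co-variation, neighbours or motifs were chosen after their values were seen. The members and lists were chosen with earlier results of these data known. Positions are those of the tables, promoters are from RefSeq (GRCm38.p6), and neighbours and principal transcripts from GENCODE M21, in which 32 of the 46 members have the tables' coordinates.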

Additional observations from a re-analysis of the deposited data

Results flagged for a closer look

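In 72 groups of 4 libraries (6 genes in 12 groups), 1 library stood apart from the other 3 of its group by Dixon's test. For Ndufa4l2 in D-alanine at CT20, the FPKM values were 4.53, 4.45, 8.90 and 4.67, so that the gap below 8.90 made up 0.949 of the range, above the 95% critical value for 4 samples. Chance flags about 1 in 20 groups where all 4 values share the same mean. Each group held 2 libraries from each table, so where the tables differ the test can miss a library that stands apart. The lack of other flags therefore says little. Without the flagged library, replicate 3, the log2 difference of Ndufa4l2 over 6 times was 0.15 (adjusted p = 0.242, limma) against 0.19 (adjusted p = 0.182) with it, and its rhythm in D-alanine had an adjusted p of 0.0389 against 0.0768. Replicate 3 was not apart in this gene alone. It had the highest share of FPKM from the 46 genes of all 48 libraries (1.76%), and the highest Ndufb9 (853.8) and Ndufs6 (485.5). Replicate 4 of that group had the lowest share of the second table (1.42%). Both libraries enter the CT20 values and the co-variation above.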

How the results depend on the processing

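No member was called at CT4, CT8, CT12, CT16 or CT20, in the treatment by time or treatment by table test, or for a rhythm difference, under any alternative run, leaving out each library included (0 to 0). Rescaling to TPM gave 2 members in the mean over 6 times (Ndufa4l2 and Ndufaf7, higher) and 3 at CT0 (Ndufaf4, Ndufaf7 and Ndufb8, higher), while it raised the calls over all genes from 259 to 2668 in the mean. For rhythm in vehicle, 0 were called after rescaling to TPM, after median centring, without the table term and in either table, and 2 when vehicle libraries were fitted by themselves (Ndufaf3 and Ndufaf4). For rhythm in D-alanine, 2 were called after rescaling to TPM and with a table by time term (Ndufa4l2 and Ndufaf4 each time), and 0 without the table term, in the second table and with D-alanine libraries by themselves. In the first table alone Ndufaf4 was not called in D-alanine either, and the count of members there is not given here. For both treatments together, 5 were called after quantile normalization (Ndufaf3, Ndufaf4, Ndufb10, Ndufb3 and Ndufc2), and 1 without the filter, without the table term and with times as a factor. The cause of these changes was not tested. The calls over all genes at CT0 after rescaling to TPM and for rhythm after quantile normalization are not given here. Those member counts are therefore not set against a share of all genes. Leaving out each library gave 0 to 1 at CT0, 0 to 2 in vehicle, 1 to 2 in D-alanine and 1 to 4 for both, and a median difference of -0.045 to -0.020. Over all genes the calls then ran from 93 to 631 in the mean and from 0 to 1247 at CT0. The treatment by table test was not run without the table term or within 1 table, since it needs both. No paired analysis was possible because replicate numbers were given in accession order. Depth limits Ndufa4l2 most, with a median of 70.2 fragments per library.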
